A study of Mus musculus with 18 samples.

Results

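The genes described here are *Arntl*, *Clock* and *Npas2*, which encode the activators of the circadian clock. They were picked by gene symbol, each symbol had 1 row, and together they are 3 of the 14451 genes in the table of liver expression. Their values were not used to choose them, though earlier results of these data were known at that time. The livers came from wild-type (WT) male mice of 8 to 9 weeks under 12 h of light and 12 h of dark, and were collected every 4 h. Time is given as zeitgeber time (ZT), in hours from lights on, and the 6 groups are ZT1, ZT5, ZT9, ZT13, ZT17 and ZT21. Polyadenylated RNA of 3 livers per time point was sequenced, 18 in all, and each liver is a different animal. The study had 5 mice per group and sequenced the 3 with the best RNA, so the livers were selected on RNA quality. There was no second genotype, treatment or diet, and all groups share the light cycle.

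The clock of mammalian cells is a feedback loop of transcription. BMAL1, the protein of *Arntl*, pairs with CLOCK or with its close relative NPAS2 through bHLH and PAS domains, and the pair binds E-box sequences and switches on the *Per* and *Cry* genes, whose proteins then inhibit the pair. A second loop acts on the activators themselves: the nuclear receptors REV-ERBα and REV-ERBβ, encoded by *Nr1d1* and *Nr1d2*, repress genes such as *Arntl* through ROR elements, at which receptors of the ROR family, such as RORα, activate. In liver this clock drives daily programmes of bile acid, lipid, glucose and xenobiotic metabolism.

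In the GENCODE M21 annotation of GRCm38, *Arntl* (ENSMUSG00000055116) lies on the plus strand of chromosome 7 from 113207465 to 113314126. *Clock* (ENSMUSG00000029238) lies on the minus strand of chromosome 5 from 76209868 to 76304792, and *Npas2* (ENSMUSG00000026077) on the plus strand of chromosome 1 from 39193731 to 39363236. None of the 50-base stretches in their annotated transcripts, the read length of the study, occurs in a transcript of another gene. Exact reads of *Clock* and of its relative *Npas2* can thus be told apart, and matches with mismatches were not searched. Some read estimates were fractional, such as 1228.27 for *Clock* in ZT1 replicate 1 and 21.92 for *Npas2* in ZT17 replicate 1, and the cause was not tested. An antisense gene, *Gm45355*, shares 33 exon bases with *Arntl* and is not in the table. Whether the libraries kept the strand is not given in the sources used here, so reads of this small overlap cannot be assigned to either gene.

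Promoter sequence is shown for *Arntl* because it holds, near its start, the kind of element on which the second loop acts. RefSeq (GRCm38.p6) windows of 250 bases before to 50 bases after the start were found for 3 of 3 members, of which *Arntl* has 2, *Clock* 3 and *Npas2* 1. They were searched on both strands for the ROR element and its shorter core AGGTCA, which overlaps it, for the E-boxes CACGTG and CACGTT, for the D-box core TTANNTAA, for AAAGTAGGTTA and for the general promoter motifs CCAAT and GGGCGG. The full ROR element occurred in 0.384% of all 32851 windows, and among the members in 1 window of *Arntl*, 26 to 36 bases after the start at 113207511 (start base counted as 0). It lies in the first exon, in the 5′ UTR, and is in capitals in the first sequence, chr7:113207528-113207557, plus strand. The second sequence, chr7:113207492-113207521, shows in capitals AAAGTAGGTTA, the one stretch in the *Arntl* windows that differs from the matched element at 1 base. It starts 36 bases before the full element and occurs in 0.0274% of all windows (9 windows, among them both of *Arntl*). Because it is an exact sequence taken from the *Arntl* windows, this share cannot be compared with that of the ROR element.
Arntl ROR element: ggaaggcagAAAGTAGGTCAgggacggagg
Arntl upstream stretch: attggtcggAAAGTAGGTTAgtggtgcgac

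The 250 bases before the upstream start of *Arntl* (chr7:113207215-113207464, plus strand) are shown with each CCAAT in capitals, here read as ATTGG because every match is on the minus strand.
Arntl promoter: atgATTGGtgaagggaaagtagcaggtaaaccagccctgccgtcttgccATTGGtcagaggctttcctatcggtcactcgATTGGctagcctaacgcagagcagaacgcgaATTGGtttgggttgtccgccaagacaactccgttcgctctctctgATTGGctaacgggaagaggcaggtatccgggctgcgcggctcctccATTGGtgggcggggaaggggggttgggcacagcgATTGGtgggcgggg

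It holds 7 such matches, and the whole window holds 8. At least 1 CCAAT occurs in 37.4% of all windows and 4 or more in 1.06%. The E-box and D-box letters were not found in any window of the 3 genes, against 7.15% of all windows for CACGTG, 4.68% for CACGTT and 6.003% for TTANNTAA. The core AGGTCA, which 16.3% of all windows hold, occurred once in a window of *Clock* and once in *Arntl*, inside the full element. The GGGCGG motif, in 35.7% of all windows, occurred in windows of all 3 genes. These matches describe the letters of the windows and are not measured binding sites.

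The depth of the 18 livers was between 10268168 and 23242842 estimated reads, with a median of 12078875. Values are normalized counts, that is, estimated reads plus 0.5 scaled to 1000000 of the library size the authors used, and a log2 change is on the log2(value + 1) scale unless said otherwise. The hepatocyte markers *Alb*, *Apoa1*, *Ttr*, *Tat*, *Cyp3a11* and *Hnf4a* summed to between 63772 and 94349 per liver. The sums were far smaller for Kupffer cell (66.5 to 160), sinusoidal endothelial (87.9 to 221), stellate (159 to 270), cholangiocyte (31.5 to 57.5), lymphocyte (5.13 to 13.4, *Cd3e* and *Nkg7* not listed) and blood markers (97.1 to 368). Between time points the mean sums of these lists differed by 1.23 to 1.56 times, and their part in the results was not tested. In a bulk tissue, fewer cells of a type and less RNA per cell cannot be told apart. By 19 other clock genes, 17 of 18 livers were nearest to the mean of their own time point. The exception, ZT5 replicate 3, was also the most deeply sequenced liver. It was at a root mean square distance of 0.659 (log2) from the other ZT5 livers and 0.612 from those of ZT9. ZT5 replicate 1, at 0.682 from the others, was still nearest to ZT5. Some results at ZT5 are given with and without replicate 3, and the others include it.

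*Arntl* was highest at ZT1, early in the light phase, and fell to a trough in the second part of the day. Its 3 livers at ZT1 had values of 29.6, 33.3 and 31.8 (mean 31.6 ± 1.88, SD, n = 3). At ZT5 they had 5.71, 5.09 and 1.69 (4.16 ± 2.17), and at ZT9 1.40, 0.978 and 1.55 (1.31 ± 0.295). All ZT9 livers were thus below all ZT5 livers, and all ZT5 livers below all ZT1 livers, with the low ZT5 value in the liver that stood apart by its other clock genes. During the night the values climbed again, to 7.91, 5.78 and 6.38 at ZT13 (6.69 ± 1.09) and to 20.3, 17.4 and 22.0 at ZT17 (19.9 ± 2.32). At ZT21 they were 23.8, 31.3 and 23.7 (26.3 ± 4.35). The ZT21 livers overlapped those of ZT1 but none of the livers at ZT5, ZT9, ZT13 or ZT17. The highest mean was 24.1 times the lowest, and the trough rested on 10 to 16 estimated reads per liver.

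*Clock* was also highest at ZT1 and lowest at ZT9, with a much shallower swing. The values were 85.0, 73.8 and 72.8 at ZT1 (77.2 ± 6.80), 40.2, 47.2 and 35.5 at ZT5 (41.0 ± 5.86) and 26.5, 26.0 and 22.4 at ZT9 (25.0 ± 2.22). Again the livers of these 3 time points did not overlap. The values at ZT13 were 40.0, 48.2 and 41.9 (43.3 ± 4.28), at ZT17 60.2, 55.8 and 58.6 (58.2 ± 2.24) and at ZT21 57.8, 65.3 and 64.9 (62.7 ± 4.22). The livers of ZT17 and ZT21 overlapped, as did those of ZT5 and ZT13, while all ZT1 livers were above all others. The highest mean was 3.09 times the lowest, so *Clock* transcript was still present at 32.3% of its highest mean at ZT9.

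*Npas2* was a gene of the late night and early morning and was close to undetected around the change from light to dark. Its values at ZT1 were 10.8, 10.5 and 12.3 (11.2 ± 0.949), and they dropped to 0.527, 0.236 and 0.354 at ZT5 (0.372 ± 0.146). At ZT9 and again at ZT13, 2 of 3 livers had no read and the other had 1 read, with all values between 0.0342 and 0.140, so that depth cannot set the trough any lower. *Npas2* returned at ZT17, with 1.54, 0.562 and 1.46 (1.19 ± 0.542), and reached 11.6, 13.4 and 9.50 at ZT21 (11.5 ± 1.94). The livers of ZT21 and ZT1 overlapped and were all above every other liver. Pooled over 3 livers, 415 reads at ZT21 stood against 1 read at ZT13, a depth-scaled ratio of 439 with an exact 95% interval of 78.4 to 17396. The ratio of ZT21 to ZT9 was 380 (67.8 to 15047). These intervals cover counting error only.

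**Figure D1:**
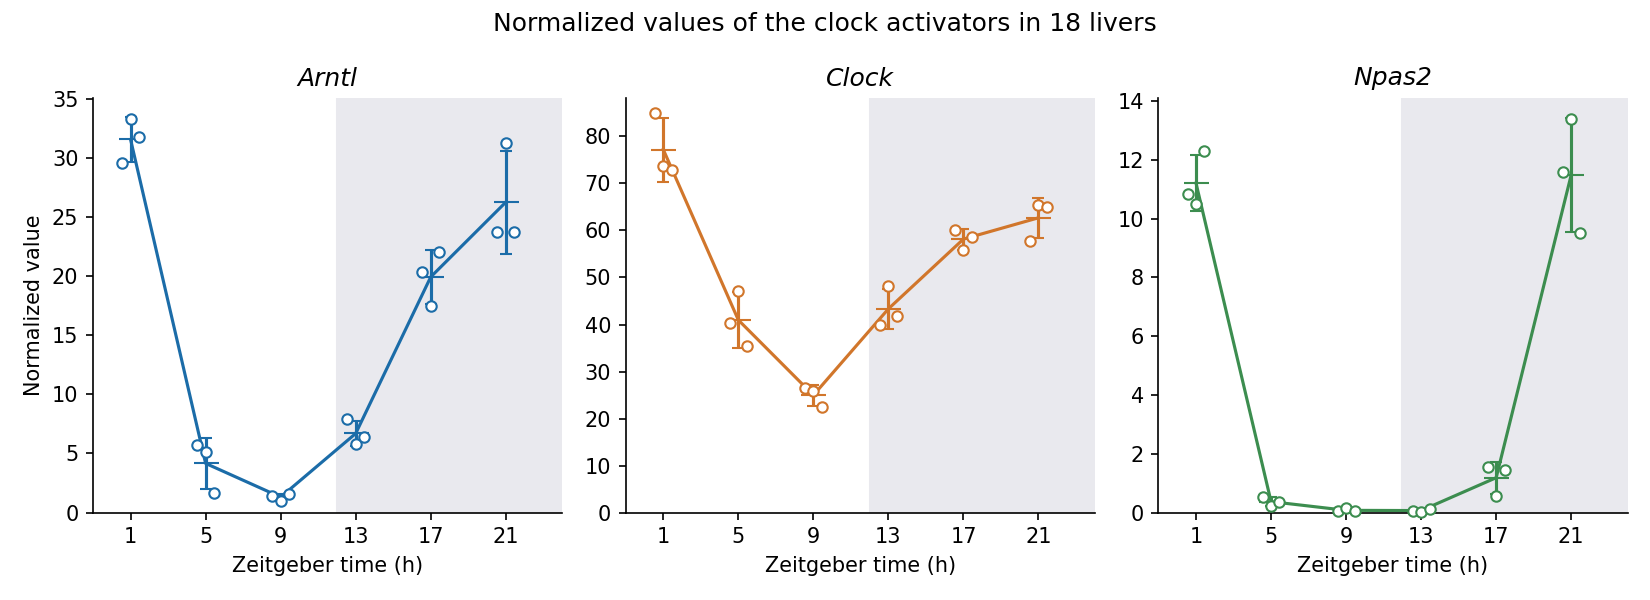
Normalized values (vertical axis, linear, own scale per gene) of *Arntl*, *Clock* and *Npas2* against zeitgeber time in hours, with the dark phase shaded. Circles are the 18 livers, bars the mean ± SD of 3 livers. *Arntl* and *Clock* were lowest at ZT9 (means 1.31 and 25.0), and *Npas2* was near 0 at ZT9 and ZT13 and above 9 in every liver at ZT21 and ZT1.

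All 3 members differed over the 6 time points in limma's F test with Benjamini-Hochberg adjustment over the 14449 genes tested, of which 29.2% passed. The adjusted P was 5.72e-09 for *Arntl*, 4.90e-08 for *Clock* and 2.89e-11 for *Npas2*. They also passed the test of a 24 h cosine, which 36.8% of genes passed. The amplitude, from mean to peak on the log2 scale, was 1.89 ± 0.16 (SE) for *Arntl*, 0.66 ± 0.08 for *Clock* and 2.04 ± 0.18 for *Npas2*, with limma adjusted P of 1.76e-07, 1.00e-05 and 1.77e-07. The median amplitude of all genes was 0.16, and *Npas2* and *Arntl* were the 7th and the 9th largest of 14449, *Clock* the 329th. By a JTK-type rank test rewritten here, which 14.1% of genes passed, the q-values were 0.0127 for *Arntl*, 0.0148 for *Clock* and 0.00613 for *Npas2*. Its null distribution takes the 6 time points as distinct ranks, although the cosine orders that it scores tie some of them. The study's own JTK run called more genes in these livers, so these q-values are not those of the study. A cosine with the period free between 20 and 28 h gave an R-squared of 0.860, 0.817 and 0.796, and 11.2% of all genes reached 0.7. Its period for *Clock* was 20 h, the shortest allowed, so the fit gives only that its best period was at the edge of the range.

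Of the steps between neighbouring time points, the fall from ZT1 to ZT5 was the largest of each member on the log2 scale. All 3 fell there, as did 3.19% of all genes. *Arntl* fell by 2.76 ± 0.24 (log2, SE, limma adjusted P = 9.87e-07), *Clock* fell by 0.90 ± 0.10 (2.68e-05) and *Npas2* fell by 3.16 ± 0.18 (3.10e-09). Without ZT5 replicate 3, the ZT5 mean of *Arntl* was 5.40 in place of 4.16, and its difference from ZT1 was -2.35 in place of -2.76 on the log2 scale (limma adjusted P = 1.05e-07).

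From ZT5 to ZT9, where 1.25% of genes fell, *Clock* fell by 0.69 ± 0.10 (limma adjusted P = 0.00106) and *Arntl* fell by 1.06 ± 0.24 (0.0253). The call for *Arntl* was lost without ZT5 replicate 1 or 2 or without any 1 of the 3 ZT9 livers, with limma adjusted P between 0.0589 and 0.147, and with voom weights (0.328). Without ZT5 replicate 3 the difference of *Arntl* was -1.48 in place of -1.06 (limma adjusted P = 5.24e-05). *Npas2* differed by -0.35 ± 0.18 (0.470), from 17 reads over the 3 livers at ZT5 to 1 read at ZT9.

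From ZT9 to ZT13, when 5.70% of all genes rose, *Arntl* rose by 1.73 ± 0.24 (limma adjusted P = 0.000181) and *Clock* by 0.77 ± 0.10 (0.000132), while the difference of *Npas2* was -0.01 ± 0.18 (0.981). From ZT13 to ZT17 all 3 rose, as did 1.11% of genes. *Arntl* gained 1.45 ± 0.24 (0.00385), *Npas2* gained 1.00 ± 0.18 (0.00612) and *Clock* gained 0.42 ± 0.10 (0.0429). The log2(value + 1) scale compresses values below 1, where *Npas2* was at ZT13, so these gains do not order the genes. In ratios of means, *Npas2* rose 17.3 times, from a floor value, *Arntl* 2.98 times and *Clock* 1.34 times. The call for *Clock* was lost when any 1 of 9 livers was left out (limma adjusted P between 0.0505 and 0.154), namely ZT1 replicates 2 and 3, ZT13 replicates 1 and 3, ZT17 replicates 1, 2 and 3, and ZT21 replicates 2 and 3. It was also lost without the mean-variance trend (0.0902 in limma).

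From ZT17 to ZT21, when 1.31% of genes rose, *Npas2* was the member that did, by 2.54 ± 0.18 (limma adjusted P = 5.77e-07), against 0.38 ± 0.24 (0.50) for *Arntl* and 0.10 ± 0.10 (0.691) for *Clock*. From ZT21 to ZT1 none of the members passed, in a comparison in which 0.201% of genes differed in either direction. The differences, ZT1 minus ZT21, were 0.27 ± 0.24 for *Arntl*, 0.29 ± 0.10 for *Clock* and -0.02 ± 0.18 for *Npas2*. For *Clock* the livers of these time points did not overlap although the adjusted P was 0.360. *Clock* alone had an unadjusted P below 0.05 there (0.0109 in limma).

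Ordered by level, *Arntl* and *Clock* both ran ZT1, ZT21, ZT17, ZT13, ZT5 and ZT9 from high to low, and *Npas2* ran ZT21, ZT1, ZT17, ZT5, ZT9 and ZT13. Between ZT13 and ZT5, neighbours in that order for *Arntl* and *Clock*, the differences were 0.67 ± 0.24 (limma adjusted P = 0.0602) and 0.08 ± 0.10 (0.632), so neither passed. Without ZT5 replicate 3, the difference of *Arntl* was 0.26 (0.320) and that of *Clock* turned to -0.01 (0.960), with a ZT5 mean of 43.7 against 43.3 at ZT13, so for *Clock* the order of these times rests on that liver. For *Arntl* the difference passed with voom weights (limma adjusted P = 0.0326) and without ZT5 replicate 1 (0.0167) or ZT5 replicate 2 (0.0397).

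The genes also differed in the share of their own highest mean that they kept. At ZT13 *Clock* was at 56.1%, *Arntl* at 21.2% and *Npas2* at 0.596%, the last a floor value. At ZT17 the shares were 75.3%, 63.1% and 10.3%. At ZT21 they had come together at 81.2%, 83.2% and 100%. On the falling side, at ZT5, *Clock* was at 53.1%, *Arntl* at 13.2% and *Npas2* at 3.24%. Without ZT5 replicate 3 these shares were 56.6%, 17.1% and 3.32%.

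**Figure D2:**
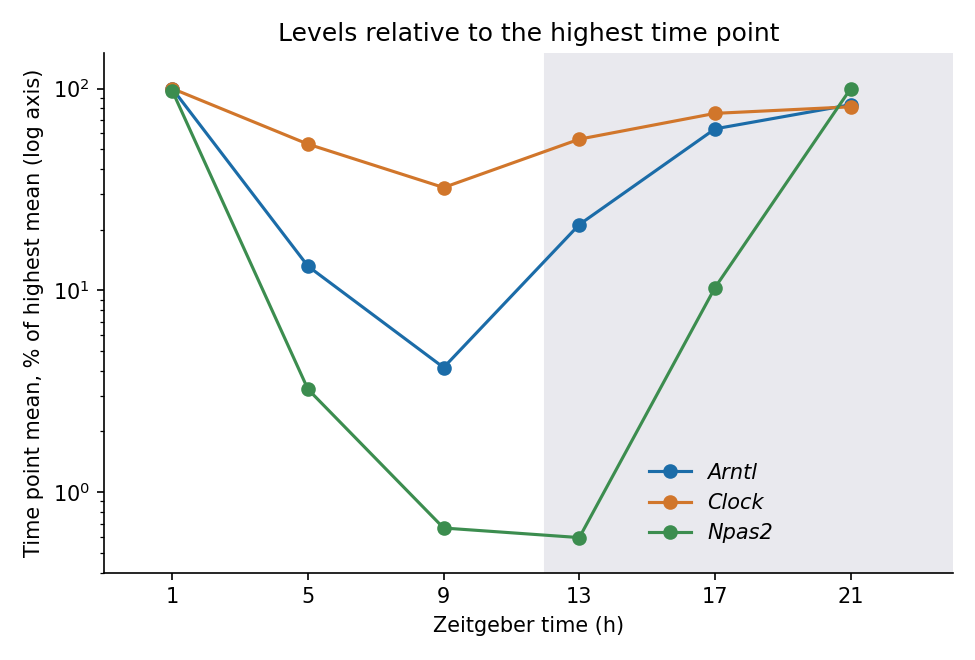
Mean of 3 livers at each zeitgeber time (h) as a percentage of the gene's highest time point mean, on a log axis, for *Arntl*, *Clock* and *Npas2*, with the dark phase shaded. At ZT17 *Arntl* was at 63.1% and *Npas2* at 10.3%, and the *Npas2* points at ZT9 and ZT13 are set by the offset of 0.5 reads.

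Times 12 h apart differed in all 3 genes. From ZT1 to ZT13, 8.13% of all genes fell, and the log2 differences were -2.09 for *Arntl*, -0.82 for *Clock* and -3.51 for *Npas2*. From ZT9 to ZT21, 6.16% of genes rose, and the differences were 3.56, 1.30 and 3.53. All of these passed, with limma adjusted P between 3.02e-10 and 2.58e-05. From ZT5 to ZT17, 10.3% of genes rose, and the differences were 2.12 for *Arntl* (limma adjusted P = 8.44e-06), 0.50 for *Clock* (0.00196) and 0.64 for *Npas2* (0.0166). The call for *Npas2* was lost without ZT5 replicate 2, ZT17 replicate 1 or ZT17 replicate 3 (0.0669 to 0.0852).

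The fitted 24 h peak was at ZT 21.0 ± 0.329 h (SE) for *Arntl*, 21.5 ± 0.456 h for *Clock* and 22.6 ± 0.330 h for *Npas2*. On the log2(value + 1) scale, the fitted peak of *Npas2* was 1.61 h after that of *Arntl*, with a 95% interval of 0.593 to 2.63 h. By time point means the order was the other way, with *Npas2* highest at ZT21 and *Arntl* at ZT1. Neither gene passed between those 2 times, so the order of the peaks is that of the fitted cosines only. The intervals of the other pairs included 0: *Clock* minus *Arntl* was 0.548 h (-0.138 to 1.23) and *Npas2* minus *Clock* 1.06 h (-0.323 to 2.45). The amplitude of *Clock* was below that of *Arntl* by a log2 difference of -1.23 (-1.51 to -0.95), and that of *Npas2* above that of *Clock* by 1.38 (0.91 to 1.86). Between *Npas2* and *Arntl* the difference was 0.16 (-0.37 to 0.68), on a scale that compresses values below 1, where the *Npas2* means of ZT5, ZT9 and ZT13 lay. With a pseudocount of 0.1 the amplitudes were 3.54 for *Npas2* and 2.18 for *Arntl*, and with voom weights 4.48 and 1.82, so the interval holds for the log2(value + 1) scale only.

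A 12 h term added to the 24 h cosine measures how far a profile departs from a plain cosine, for example by a sharp peak and a flat trough. Of all genes 1.22% passed this test, and so did the 3 members. In the gene lists described below, 5 of 7 clock outputs, 2 of 8 repressors and 1 of 4 ROR element regulators also passed. Among cofactor genes 0 of 17 passed, and among other bHLH-PAS genes 1 of 8. The 12 h amplitude was 0.59 for *Arntl* (limma adjusted P = 0.0156), 0.31 for *Clock* (0.00186) and 0.72 for *Npas2* (0.000299). The unadjusted P ranked *Npas2* 6th, *Clock* 18th and *Arntl* 69th of 14449 genes. The call for *Npas2* did not hold with a pseudocount of 0.1 (amplitude 0.60, limma adjusted P = 0.186) or with voom weights (0.44, 0.631), and that for *Arntl* was lost without ZT1 replicate 2 (0.56, 0.0522). The call for *Clock* passed in all alternatives run.

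Each liver gives 1 ratio of transcript levels per pair of members, and these ratios differed between livers of different time points. In log2 ratios of the deposited values, *Clock* over *Arntl* was 1.29 ± 0.20 (SD, n = 3) at ZT1, 3.47 ± 0.82 at ZT5 and 4.28 ± 0.44 at ZT9. It then declined to 2.70 ± 0.36 at ZT13, 1.55 ± 0.13 at ZT17 and 1.27 ± 0.20 at ZT21. All livers of ZT5, ZT9 and ZT13 were above all livers of the other time points. A permutation test of the ratios over time points, on the log2(value + 1) scale with 100000 draws, gave P = 4e-05, adjusted 0.0001 over the 3 pairs.

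*Npas2* over *Arntl* moved differently, being highest where *Npas2* peaked. The log2 ratio was -1.50 ± 0.15 at ZT1, -3.37 ± 1.09 at ZT5 and -4.20 ± 0.66 at ZT17, and it was -1.19 ± 0.14 at ZT21. In ZT5 replicate 3 it was -2.25, against -3.44 and -4.43 in replicates 1 and 2. At ZT9 (-5.04 to -2.81) and ZT13 (-7.59 to -5.61) it is an upper limit in the 2 livers without an *Npas2* read. The ZT17 livers were all below the ZT21 livers, at times when *Arntl* itself did not pass as different. The ratio changed over the day by the same kind of permutation test (P = 0.0001, adjusted 0.0001). On the log2(value + 1) scale of that test the highest time was ZT9 and the lowest ZT17, and with a pseudocount of 0.1 they were ZT21 and ZT13. The order of time points is therefore read from the deposited values, and the test says only that the ratio was not the same at all times.

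*Npas2* over *Clock* had its highest log2 ratios at ZT21 (-2.46 ± 0.27) and ZT1 (-2.78 ± 0.20), and was -6.85 ± 0.72 at ZT5 and -5.75 ± 0.76 at ZT17. No liver of ZT21 or ZT1 overlapped a liver of another time point. The permutation test gave P = 7e-05, adjusted 0.0001. The smallest P that this number of draws allows is 1e-05.

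**Figure D3:**
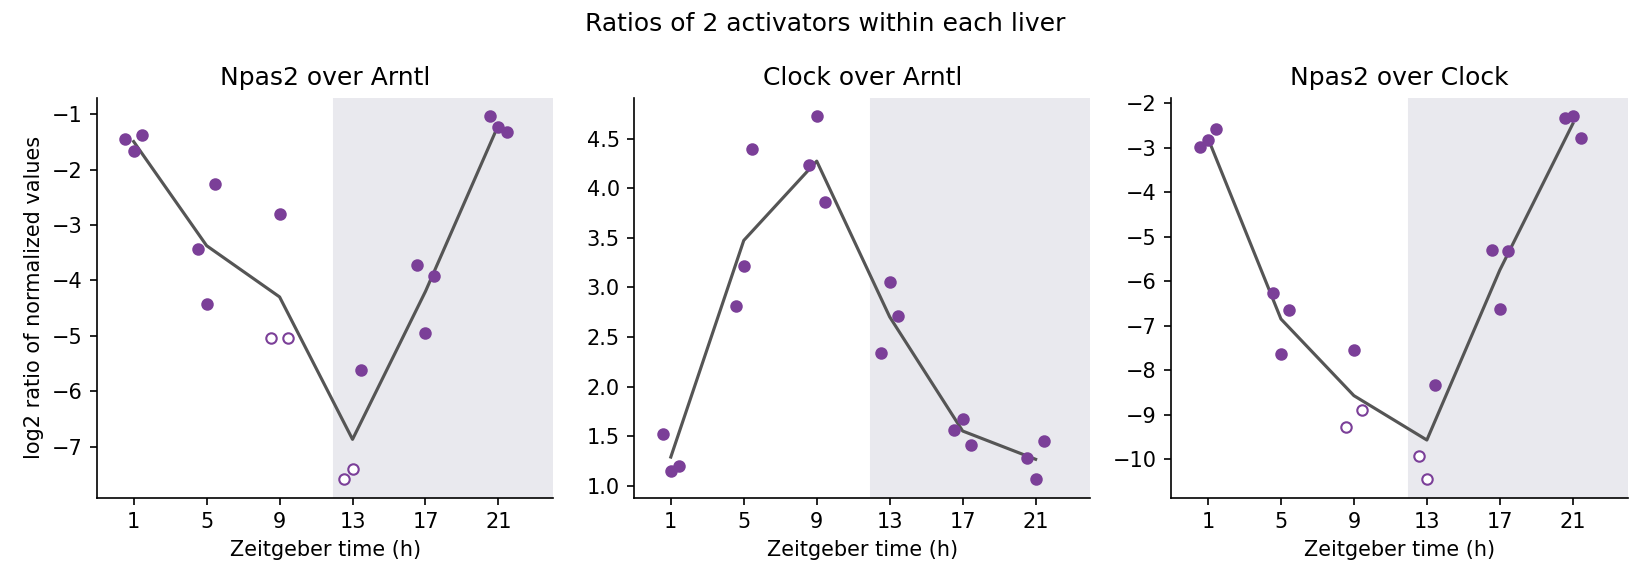
log2 ratio of the normalized values of a pair of activators within each liver (vertical axis) against zeitgeber time (h), with the dark phase shaded. Points are the 18 livers, and the line joins the means of 3 livers. Open points are livers without an *Npas2* read, where the ratio is set by the offset of 0.5 reads. *Clock* over *Arntl* was highest at ZT9 (mean 4.28), and both *Npas2* ratios were highest at ZT21 (means -1.19 and -2.46).

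Levels of different genes can be set side by side only per length. With the union of annotated exons (7.52 kb for *Arntl*, 13.7 kb for *Clock* and 4.79 kb for *Npas2*), the value per kb of *Clock* was 1.35 ± 0.198 times that of *Arntl* at ZT1 and 10.9 ± 3.33 times at ZT9. With the longest protein-coding transcript as the length, the ratio at ZT1 was 0.751, so which of them was higher at ZT1 depends on the length chosen, and at ZT9 *Clock* was 6.10 ± 1.86 times as high. *Npas2* per kb was below both at every time point. It came closest at ZT21, at 0.689 ± 0.0698 of *Arntl* and 0.527 ± 0.0933 of *Clock* with union exons (0.308 and 0.423 with the longest protein-coding transcripts).

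The regulators of the ROR element, fixed as a list of 5 of which *Rorb* was not listed in the table, had a 24 h rhythm in 4 of 4 cases, against 36.8% of all genes, with a median amplitude of 1.48 against 0.16 over all genes. The repressor *Nr1d1* had its highest mean at ZT5 (117 ± 25.0) and its lowest at ZT17 (1.57 ± 0.739). *Nr1d2*, its close relative, was highest at ZT9 (125 ± 13.1) and lowest at ZT21 (11.6 ± 2.13). *Arntl* and *Npas2* lost most of their transcript between ZT1 and ZT5, over which *Nr1d1* went from 16.6 ± 3.98 to its highest mean.

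By ZT13, *Nr1d1* was down to 8.37 ± 2.93, while *Nr1d2* was at 48.5 ± 9.83 and fell to 18.8 ± 1.95 at ZT17. *Arntl* had begun to rise by ZT13, and *Npas2* left its floor between ZT13 and ZT17. *Rora*, which encodes the activator RORα, varied from 55.9 ± 6.19 at ZT13 to 85.3 ± 16.0 at ZT21. The fitted peaks were at ZT 6.20 h for *Nr1d1*, 8.29 h for *Nr1d2* and 0.920 h for *Rora*. These are values side by side, and an effect of one gene on another was not tested.

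The repressors of the E-box loop all had a 24 h rhythm (8 of 8 against 36.8% of all genes, median amplitude 1.35), and most peaked around the change from light to dark. Fitted peaks of *Per1*, *Per2* and *Per3* were at ZT 11.6, 13.9 and 10.8 h. Those of the other repressors were at 12.2 h for *Cry2*, 10.6 h for *Ciart*, 10.3 h for *Bhlhe40* and 8.04 h for *Bhlhe41*. *Cry1*, whose protein represses late in the cycle, was the repressor nearest in time to the activators, with a peak at 18.8 h and means from 6.36 ± 1.05 at ZT5 to 47.6 ± 6.17 at ZT21. Of these 8 genes, *Per3* and *Cry2* passed the 12 h test, which 1.22% of all genes passed.

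Output genes of the clock had a 24 h rhythm in 7 of 7 cases, against 36.8% of all genes (median amplitude 1.10). Those with the widest ratio of highest to lowest mean were *Dbp* (359), *Usp2* (29.95), *Tef* (9.43) and *Wee1* (8.92), all highest at ZT9 and lowest at ZT1, the reverse of *Arntl* and *Clock*. *Nfil3*, which encodes a repressor at D-boxes, was the exception in time. It was picked out after its values were seen, was highest at ZT1 (69.3 ± 10.4), lowest at ZT9 (11.7 ± 1.20) and peaked at ZT 20.7 h.

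**Figure D4:**
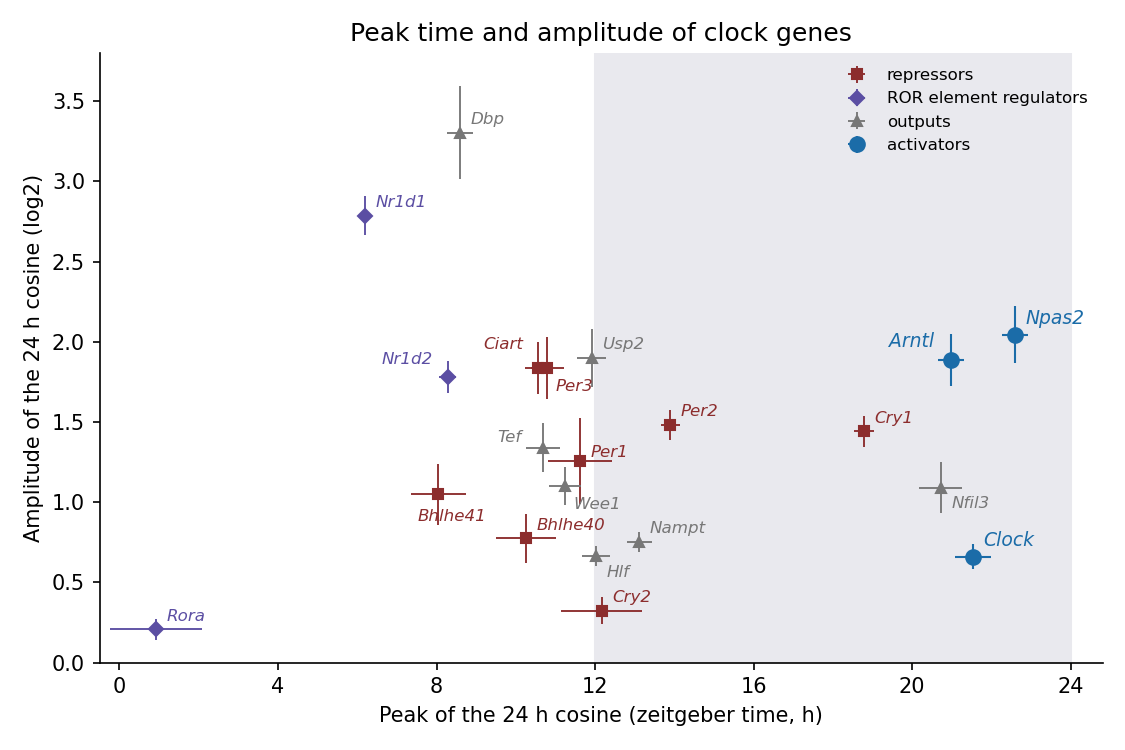
Amplitude of the 24 h cosine (log2, vertical axis) against its peak (zeitgeber time, h) for the 3 activators and 18 other clock genes, with bars of ± SE and the dark phase shaded. The activators peaked between 21.0 and 22.6 h, most repressors and outputs between 8.04 and 13.9 h, and *Clock* had the smallest amplitude of the activators (0.66).

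Genes of proteins that work with the activators had small amplitudes. Of 17 cofactor genes (acetyltransferases, kinases, ubiquitin ligases and others), 7 had a 24 h rhythm, against 36.8% of all genes, with a median amplitude over all 17 of 0.11, below the 0.16 of all genes. Among them were *Kat2b*, an acetyltransferase (amplitude 0.32), and *Kdm5a*, a histone demethylase (0.28). *Fbxl21* had a ratio of highest to lowest mean of 1.68 but an adjusted P of 0.0625 for its rhythm in limma.

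The other genes of the bHLH-PAS family, which share the domains by which the activators pair, had a median amplitude of 0.11. Of 16 listed genes, 8 were measured, and 2 of these 8 had a 24 h rhythm, against 36.8% of all genes, namely *Epas1* (amplitude 0.19) and *Ncoa2* (0.25). The number was 1 without ZT1 replicate 2, ZT13 replicate 3, ZT21 replicate 1 or ZT21 replicate 3. *Arntl2*, the nearest relative of *Arntl*, had means between 1.53 ± 0.318 at ZT13 and 2.54 ± 0.536 at ZT21 and did not pass (limma adjusted P = 0.217). *Arnt*, the general partner of the family, was highest at ZT1 (45.5 ± 3.35) and lowest at ZT5 (33.3 ± 2.71), and passed the F test (limma adjusted P = 0.00357) but not the 24 h test.

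Genes were also ranked by how closely their 6 time point means, centred on the log2(value + 1) scale, followed those of each member, among 12479 genes with a mean value of at least 1. The measure is the root mean square difference, given as a description. For *Arntl* the closest was *Chka*, a choline kinase of phospholipid synthesis (0.21), which went from 143 ± 16.3 at ZT1 to 14.0 ± 0.375 at ZT9. Among the 5 closest were also *Tubb2a*, a tubulin (0.32), the transcription factor gene *Pitx3* (0.41) and *Pdk4*, a kinase that restrains pyruvate oxidation (0.49). The closest mirror images of *Arntl* were *Nr1d2* (0.38), *Ciart* (0.56) and *Upp2*, a uridine phosphorylase (0.56). *Npas2* itself was 39th in likeness to *Arntl* and *Clock* 56th.

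The measure does not scale for amplitude, so distances are not compared between members. The first 5 neighbours of *Clock* were *Psen2*, *Crip2*, *Pde9a*, *Tars* and *Trim2*, at 0.12 to 0.13. All 5 were lowest at ZT9, and *Psen2*, a presenilin, went from 223 ± 20.2 at ZT21 to 85.0 ± 2.10. Of the 12479 genes compared, *Arntl* was 12304th and *Npas2* 12429th in likeness to *Clock*. The measure counts a larger amplitude as a difference, and theirs (1.89 and 2.04) were far above that of *Clock* (0.66). These 2 ranks therefore do not describe how alike the genes were in timing. The mirror images of *Clock* were *N4bp2l1* (0.15), *Ccne1*, a cyclin (0.16), and *Ung*, a uracil DNA glycosylase (0.16). The first 5 neighbours of *Npas2* were *Loxl4* (0.51), *Pitx3* (0.54), *Pdk4* (0.66), the fatty acid elongase gene *Elovl3* (0.67) and the nuclear receptor gene *Ppard* (0.68), and *Arntl* was 9th. *Pitx3* and *Pdk4* were named for both *Arntl* and *Npas2*. The mirror images of *Npas2* were *Per3* (0.60), *Tef* (0.68) and *Ciart* (0.68).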

How the data were processed

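The authors removed adapters with cutadapt, estimated reads per gene with RSEM 1.2.20 on GRCm38 and normalized them with limma. The deposited values are a linear signal, and from the values each is an estimated count plus 0.5 reads, scaled to 1000000 of a library size set by the authors. Reads were recovered from each liver's lowest value, which stands for 0 reads. They are not whole counts, so count tests were not used. limma 3.58.1 (R 4.3.3, mean-variance trend) was fitted to log2(value + 1) of 14449 genes, leaving out 2 at the floor in every liver, with Benjamini-Hochberg adjustment and a threshold of 0.05, and was tested on simulated data. It gave an F test over 6 time points, pairwise differences and cosine terms of 24 h and 12 h. Intervals of differences between fitted peaks and amplitudes are of 95%. Ratios within livers were tested by permuting the time points, with the upper tail of the F statistic, which takes differences in any direction. The study's own methods were JTK, MetaCycle and CircaN. JTK and a cosine of free period were written again in Python 3.11.15 (scipy 1.17.1).

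Other settings were a pseudocount of 0.1, median-ratio scaling, a mean value of at least 1, no trend, voom weights, each liver left out in turn, and other exon lengths. Named genes were the members, all repressors and ROR element regulators, up to 4 genes per other list with the widest ratio of means, and the 5 most alike and 3 most opposite genes per member, and 3 genes that this rule names are not reported here. The members and the lists were chosen with earlier results of these data known. No batch is given in the labels, and the P-values judge differences between times against the spread between livers.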

Additional observations from a re-analysis of the deposited data

How the results depend on the processing

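The F test over time points, the 24 h rhythm of the 3 members and the change of their ratios over time passed in all alternatives run. The highest and lowest times of *Npas2* over *Arntl* moved from ZT9 and ZT17 to ZT21 and ZT13 with a pseudocount of 0.1. The 24 h amplitude of *Npas2*, 2.04, was 3.54 with a pseudocount of 0.1 and 4.48 with voom weights. The difference of *Clock* between ZT13 and ZT5, which did not pass, turned from 0.08 to -0.01 without ZT5 replicate 3. The 12 h amplitude of *Npas2* was 0.60 with a pseudocount of 0.1 and 0.44 with voom weights and did not pass in either, and the cause was not tested. Leaving out 1 liver in turn gave a 12 h amplitude of *Arntl* between 0.56 and 0.63, with limma adjusted P between 0.000144 and 0.0522, and a count of other bHLH-PAS genes with a 24 h rhythm between 1 and 3. With the longest transcript as the length, *Npas2* over *Arntl* per kb at ZT21 was 0.414, *Clock* over *Arntl* at ZT1 1.01 and *Npas2* over *Clock* at ZT21 0.423. With the longest protein-coding transcript, an alternative added after seeing the data because the longest *Arntl* transcript is a retained intron, they were 0.308, 0.751 and 0.423. Genes that passed the 12 h test numbered 176, and between 99 and 193 when 1 liver was left out, the lowest 3 being 99, 112 and 117 without ZT1 replicate 2, 3 and 1. No paired analysis was possible because each liver is another animal and the labels give no replicate number that livers of different time points share. With 10268168 reads or more per liver, the trough of *Npas2* is limited by depth, at 0 or 1 read.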
